A study of Homo sapiens with 6 samples.

Results

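Transcripts of secreted growth factors were examined in hTERT RPE-1 cells after a low dose of a topoisomerase 1 poison. The list named 10 genes, chosen with earlier results of this comparison known, and the members were those whose symbol had a row in the deposited expression table. That gave 8 members among 13696 genes: GDNF, TGFB1, TGFB2, VEGFA, PDGFC, FGF2, HBEGF and KITLG. GDF15 and PGF had no row and are not analysed here. Why a gene lacks a row was not tested, so here and below a missing row does not show that the gene was silent. All 8 members passed the filter on low values, a mean over the 6 libraries of at least 1 CPM, the usual read count scaled to a common library total.

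The cells are a human retinal pigment epithelial line immortalised with telomerase, here a single line grown in serum. Pre-dosed cells received 25 nM camptothecin, which traps topoisomerase 1 on DNA, for 1 h and were harvested after 24 h without it, and the other cells were left untreated. Each group had 3 libraries of poly-A RNA, numbered 1 to 3, with effective totals of 26336941 to 31780391 reads. The labels do not say whether the replicates were separate cultures, so the errors below measure the spread between these libraries, which may be technical. The 2 libraries numbered 1 stood apart from the other 4 over many genes, so each member is given in every library and in each same-numbered pair.

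The members are ligands that cells release to act on themselves or on neighbours. TGFB1 and TGFB2 are secreted in a latent complex and signal through paired serine/threonine kinase receptors to SMAD proteins. The other members act through receptor tyrosine kinases: GDNF through GFRA1 and RET, VEGFA through FLT1 and KDR, PDGFC through the PDGF receptors, FGF2 through FGF receptors, HBEGF through EGFR, and KITLG through KIT. Pigment epithelium is known as a source of VEGFA for the vessels beneath it, and DNA damage is known to alter the set of factors that cells secrete.

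The line's identity was checked against markers. Of 16 pigment epithelium markers 7 had a row: KRT8, KRT18, MITF, PAX6, OTX2, RDH5 and BEST1. KRT8 had 901 ± 28.4 CPM in pre-dose and 936 ± 54.3 CPM in untreated libraries (SD, n = 3 each). The groups did not overlap for RDH5, a retinol dehydrogenase, at 13.4 ± 1.00 CPM in pre-dose and 11.4 ± 0.0790 CPM in untreated libraries, nor for KRT18, the keratin partner of KRT8, at 418 ± 8.08 CPM in pre-dose and 449 ± 16.0 CPM in untreated libraries (SD, n = 3 each). Of the 7 the authors' deposited table called 1, KRT18, as lower (log2 fold change -0.14, adjusted p = 0.0420). The pigment and visual cycle genes RPE65, RLBP1, LRAT, PMEL, TYR, TYRP1 and DCT had no row, nor did TTR and SERPINF1. Of 10 fibroblast and mesenchyme markers 6 had a row: COL1A1, VIM, THY1, PDGFRB, FAP and TWIST1. COL1A2, COL3A1, DCN and LUM had none. Of the 6 the authors' deposited table called 0. VIM, 1 of the 6, stood at 9541 ± 1115 CPM in pre-dose and 9555 ± 1364 CPM in untreated libraries (SD, n = 3 each). Of the endothelial, blood cell and neuronal markers 1 of 8, 2 of 7 and 3 of 7 had a row. Their summed levels were 1.97 to 2.60, 86.7 to 92.0 and 42.4 to 58.4 CPM in pre-dose libraries, against 1.58 to 2.06, 75.4 to 84.4 and 36.4 to 50.4 CPM in untreated libraries. CD68, a lysosomal protein of macrophages and other cells, had 73.7 ± 2.72 CPM in pre-dose and 62.9 ± 4.12 CPM in untreated libraries (SD, n = 3 each). HBB, a haemoglobin chain, went the other way, with 15.3 ± 1.32 CPM in pre-dose and 18.1 ± 0.907 CPM in untreated libraries (SD, n = 3 each), and neither gene's groups overlapped. The authors' deposited table called CD68 higher (log2 fold change 0.27, adjusted p = 0.0369) and did not call HBB (-0.19, adjusted p = 0.136). The defining markers PECAM1, VWF, PTPRC, CD3E and RBFOX3 had no row, and the part of such markers in the results below was not tested.

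GDNF, the glial cell line-derived neurotrophic factor, which supports neurons and kidney development, was higher in pre-dose cells. It was the member, 1 of 8, whose groups did not overlap, where 6.55% of genes tested did not overlap in either direction, 3.36% as higher and 3.19% as lower. It had 7.35, 10.5 and 8.72 CPM in pre-dose replicates 1, 2 and 3, against 6.32, 5.64 and 5.55 CPM in untreated replicates 1, 2 and 3. Every pre-dose library lay above every untreated one, and the replicate 1 libraries were the closest to each other. The means were 8.85 ± 1.57 CPM in pre-dose and 5.84 ± 0.425 CPM in untreated libraries (SD, n = 3 each), a ratio of 1.52. These levels rest on 233, 316 and 261 estimated reads in the pre-dose libraries and 186, 148 and 168 in the untreated ones, so counting error alone is 5.63 to 8.22% per library. In bulk RNA, more cells with the transcript and more of it per cell cannot be told apart.

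On the log2(CPM + 1) scale, which understates the changes of low genes, the fitted GDNF difference was 0.52 (95% interval 0.21 to 0.82). It was 0.19 in the replicate 1 pair, 0.79 in the replicate 2 pair and 0.57 in the replicate 3 pair. GDNF was among the 50 of 13616 genes tested whose fitted difference was at least that large in either direction. It was not past an adjusted p of 0.05 in limma (unadjusted p = 0.00483, adjusted p = 0.99987), and neither was any other gene. The authors' deposited table called 3.05% of genes at an adjusted p of 0.05, 1.61% as higher and 1.45% as lower. For GDNF the authors' deposited table gave a log2 fold change of 0.67 (0.46 to 0.89) and an adjusted p of 0.0254. Fitted on the deposited log2 values, with no 1 added, the GDNF difference was 0.59 (0.25 to 0.93). In limma on replicates 2 and 3 alone the GDNF difference was 0.68 (adjusted p = 0.00455), in a fit where 6.36% of genes passed. Since GDNF was listed with results of this comparison known, these values describe it and are no independent test.

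**Figure D1:**
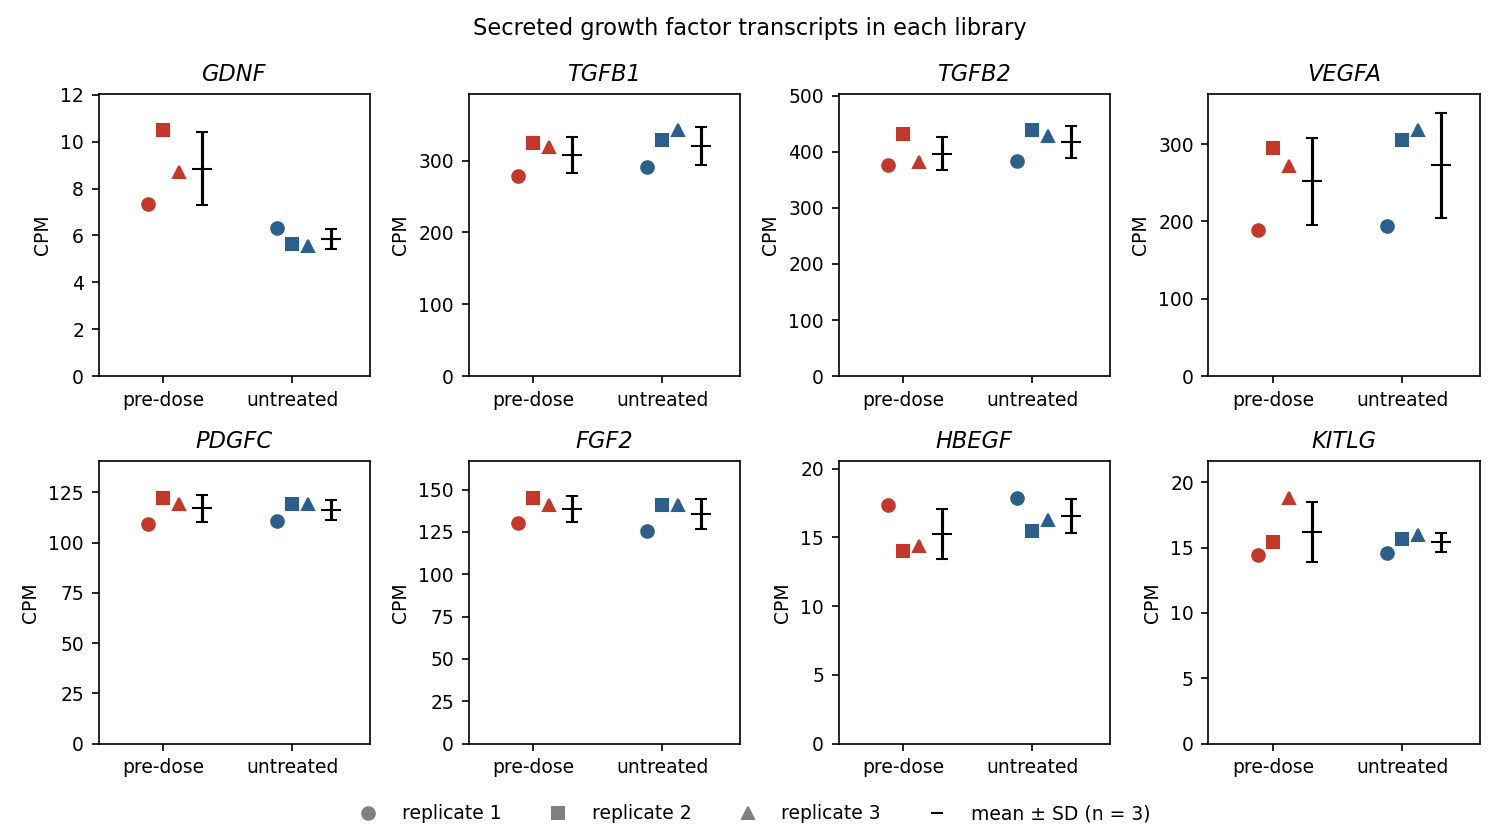
Level of each growth factor transcript in CPM (vertical axes, from 0) in 3 pre-dose and 3 untreated libraries, with the marker shape giving the replicate number and bars the mean ± SD. GDNF is separated between the groups, at 7.35 to 10.5 CPM against 5.55 to 6.32 CPM, and VEGFA is low in both replicate 1 libraries.

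GDNF lies on chromosome 5 from 37812677 to 37839686 on the minus strand (GRCh38, GENCODE release 29). RefSeq (GRCh38.p14) lists 4 windows around start sites for it, and gene-level values do not tell which start was used. The 250 bases before the most upstream start are shown because GDNF is the member that differed. They span chr5:37840042-37840291, read 5′ to 3′ on the minus strand, and overlap no GENCODE exon. Capitals mark the 26 CG dinucleotides, the sites at which DNA can be methylated, where the median over 35116 windows of this length is 11. Upstream of GDNF starts 2, 3 and 4 there were 8, 5 and 18. Members whose groups overlapped had 33 (FGF2), 33 (HBEGF), 26 (KITLG), 21 (TGFB1) and 11 (TGFB2), so the count does not set GDNF apart.
GDNF upstream region: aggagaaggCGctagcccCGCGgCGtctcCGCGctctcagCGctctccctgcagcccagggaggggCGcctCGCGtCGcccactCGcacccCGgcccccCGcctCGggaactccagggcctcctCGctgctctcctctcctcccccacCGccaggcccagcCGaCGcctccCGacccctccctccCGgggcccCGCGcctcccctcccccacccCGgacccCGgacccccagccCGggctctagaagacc

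The 4 GDNF windows, each with 250 bases before and 50 after a start, were searched on both strands for 8 motifs. There was no match to the p53 half-site (found in 6.63% of all windows), to the cyclic AMP response element TGACGTCA (1.85%), to the AP-1 site TGANTCA (7.71%) or to the ATF4-bound element TGATGNAA (3.62%). There was also none to the TATA box TATAAA (11.5%) or the E-box CACGTG (7.26%). The window at the second start held a CCAAT box, CCAAT (34.6%), on the opposite strand, and the window at the fourth start a GC box, GGGCGG (45.0%). None of the RefSeq windows of TGFB1, TGFB2, FGF2, HBEGF and KITLG held the p53 half-site or the AP-1 or ATF4 element either. VEGFA and PDGFC were not matched to a window. These are letters in a window, and say nothing of whether a factor was bound.

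GDNF shares 526 exonic bases, 12.3% of its exons, with GDNF-AS1 on the opposite strand. The strand setting of the counting is not given in the sources used here, so reads there cannot be assigned to either gene. GDNF-AS1 had 1.02, 1.56 and 1.57 CPM in pre-dose replicates 1, 2 and 3, against 1.11, 1.08 and 1.08 CPM in untreated replicates 1, 2 and 3. It was higher in the pre-dose library of the replicate 2 and 3 pairs and lower in that of the replicate 1 pair, on 28 to 47 estimated reads per library.

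By the Pearson correlation of log2(CPM + 1) over the 6 libraries, the 5 genes most like GDNF were BCL2L1 (r = 0.994), which encodes the survival protein BCL-XL, MREG (r = 0.990), CYTH4 (r = 0.987), NDUFA10 (r = 0.983), a subunit of respiratory complex I, and ALDH3A2 (r = 0.983), a fatty aldehyde dehydrogenase. They were picked from 13616 genes over the same libraries, so a high r is a description. BCL2L1 had 134, 159 and 145 CPM in pre-dose replicates 1, 2 and 3, against 129, 119 and 118 CPM in untreated replicates 1, 2 and 3, which is the same order of libraries as for GDNF. NDUFA10 shared the shape of the pattern and not its size, with a log2 difference of 0.04.

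GFRA1, the subunit that binds GDNF, had 56.2 ± 3.11 CPM in pre-dose and 58.5 ± 4.41 CPM in untreated libraries (SD, n = 3 each), a difference of -0.06 (95% interval -0.24 to 0.12). RET, its kinase partner, and NCAM1, an alternative partner, had no row. The other GDNF family ligands with a row were ARTN and PSPN. ARTN had 2.03, 1.38 and 1.32 CPM in pre-dose replicates 1, 2 and 3, against 1.82, 2.30 and 2.03 CPM in untreated replicates 1, 2 and 3. It was lower in the pre-dose library of the replicate 2 and 3 pairs and higher in that of the replicate 1 pair, and the authors' deposited table called it lower (log2 fold change -0.64, adjusted p = 0.0485). PSPN differed by 0.16 (-0.09 to 0.41).

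For TGFB1 and TGFB2, the latent ligands that signal to SMADs, the groups overlapped. TGFB1 had 279, 325 and 319 CPM in pre-dose replicates 1, 2 and 3, against 291, 329 and 342 CPM in untreated replicates 1, 2 and 3. Each pre-dose library was slightly below its untreated partner, and both replicate 1 libraries were below the other 4. The fitted difference was -0.06 (95% interval -0.26 to 0.14). TGFB2 had 377, 431 and 382 CPM in pre-dose replicates 1, 2 and 3, against 384, 438 and 428 CPM in untreated replicates 1, 2 and 3. Its pairs differed by -0.03, -0.02 and -0.16, and its fitted difference was -0.07 (-0.25 to 0.11). The third ligand of this group, TGFB3, stood far lower, at 2.72 ± 0.161 CPM in pre-dose and 2.94 ± 0.130 CPM in untreated libraries (SD, n = 3 each). Its groups did not overlap, with the pre-dose values the lower, and its difference was -0.08 (-0.30 to 0.14).

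VEGFA, the main angiogenic ligand, had 189, 295 and 272 CPM in pre-dose replicates 1, 2 and 3, against 194, 305 and 318 CPM in untreated replicates 1, 2 and 3. Its pairs differed by -0.04, -0.05 and -0.23 on the log2 scale. The replicate 1 libraries were lower than the other 4 by 0.63, against a difference of -0.11 between treatments (95% interval -0.64 to 0.43). With the replicate number as a block the interval narrowed to -0.20 to -0.01, and the adjusted p was 0.448. PDGFC, a platelet-derived growth factor activated by proteolysis, had 117 ± 6.75 CPM in pre-dose and 116 ± 4.92 CPM in untreated libraries (SD, n = 3 each). Its difference was 0.01 (-0.15 to 0.16).

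FGF2, which is released without a signal peptide and stored on heparan sulphate, had 139 ± 7.55 CPM in pre-dose and 136 ± 8.74 CPM in untreated libraries (SD, n = 3 each), a difference of 0.03 (-0.14 to 0.20). HBEGF, shed from the cell surface by metalloproteases, had 17.4, 14.0 and 14.4 CPM in pre-dose replicates 1, 2 and 3, against 17.9, 15.4 and 16.3 CPM in untreated replicates 1, 2 and 3. Each pre-dose value was below its partner and the groups overlapped, with a difference of -0.11 (-0.35 to 0.13). KITLG, the survival factor of melanocytes and mast cells, had 14.4, 15.4 and 18.8 CPM in pre-dose replicates 1, 2 and 3, against 14.6, 15.7 and 16.0 CPM in untreated replicates 1, 2 and 3. Pre-dose replicate 3 was the highest of the 6 libraries and the other 5 lay between 14.4 and 16.0 CPM. The KITLG difference was 0.06 (-0.19 to 0.31), and without pre-dose replicate 3 it was -0.04.

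**Figure D2:**
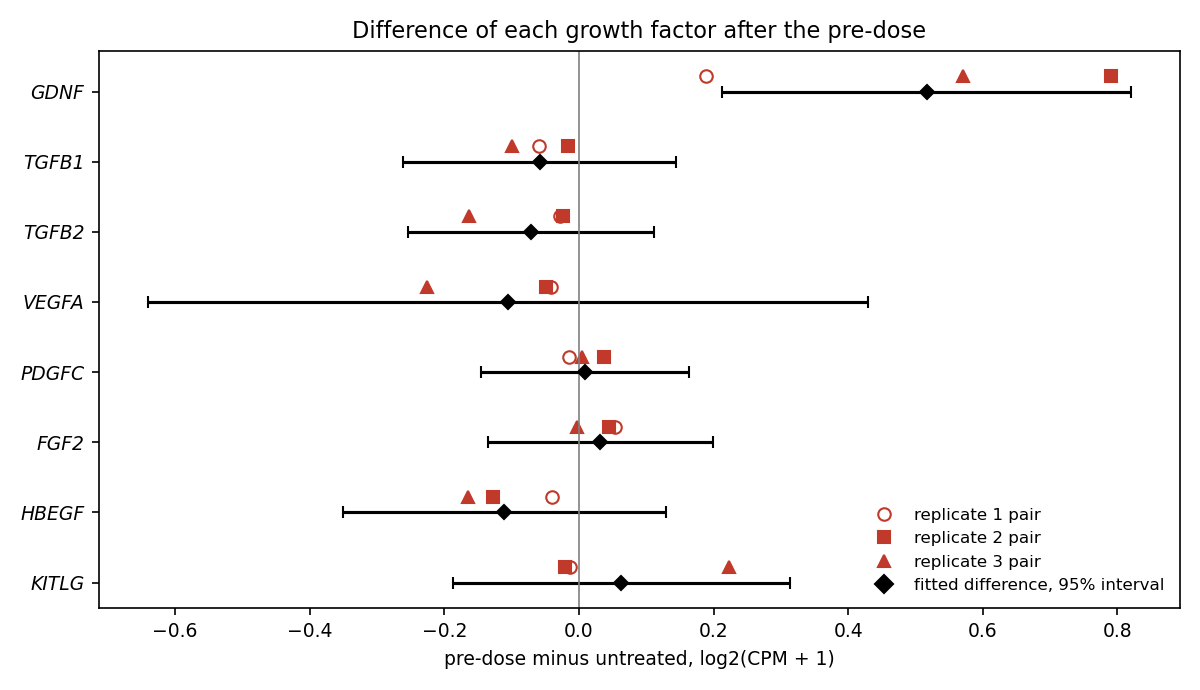
Difference between pre-dose and untreated libraries on the log2(CPM + 1) scale (horizontal axis) for each growth factor, in each same-numbered pair (red) and as fitted over all 6 libraries with its 95% interval (black). The GDNF interval lies above 0, at 0.21 to 0.82, and the other 7 intervals include 0.

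Set beside the whole table, GDNF stood alone among the members. In limma 0 of 8 members passed after adjustment, as did 0% of all genes, and 1 of 8 had an unadjusted p under 0.05, against 2.06% of all genes. All 3 pairs were higher for 1 member and lower for 4, TGFB1, TGFB2, VEGFA and HBEGF, against 15.6% of genes tested with all pairs higher and 16.3% with all pairs lower. The median fitted difference of the members was -0.02 and that of all genes -0.001. Among the 7 members other than GDNF the largest fitted difference, in size, was 0.11. Of the 8 members the authors' deposited table called 1, GDNF.

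The replicate number, which took no part in choosing the members, could be tested with the treatment in the fit. In limma 4 of 8 members varied with it at an adjusted p of 0.05, against 27.4% of genes tested: VEGFA (adjusted p = 3.44e-04), TGFB1 (0.00827), TGFB2 (0.0358) and FGF2 (0.0405). GDNF did not pass (adjusted p = 0.659). For TGFB1, VEGFA, PDGFC, FGF2 and KITLG, 5 of the 8, both replicate 1 libraries were below all the other 4. The same count was not made over all genes, so it does not set the members apart from other genes. The labels name no batch, and what the replicate number stands for was not tested.

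Some of these members share exonic bases with other genes, and whether this affects their values was not tested. VEGFA shares 188 exonic bases, 1.3% of its exons, with the antisense gene AL136131.3. That gene had 0.647, 1.94 and 2.29 CPM in pre-dose replicates 1, 2 and 3, against 0.863, 3.35 and 2.36 CPM in untreated replicates 1, 2 and 3. Its replicate 1 libraries were the lowest, at levels far below those of VEGFA. FGF2 shares 804 bases, 11.9% of its exons, with NUDT6, a hydrolase gene on the opposite strand at 5.17 to 5.81 CPM in pre-dose and 4.86 to 5.07 CPM in untreated libraries. The NUDT6 groups did not overlap, unlike those of FGF2. TGFB1 shares 215 bases, 6.64% of its exons, with HNRNPUL1, an RNA-binding protein gene. HNRNPUL1 had 475 to 578 CPM in pre-dose and 499 to 581 CPM in untreated libraries. TGFB2 shares 1371 bases, 26.6% of its exons, with TGFB2-OT1 on the same strand, which had no row.

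Levels of different genes were compared per kilobase of exons, over all 6 libraries. The order was TGFB1 (97.0 ± 7.46 CPM per kilobase), TGFB2 (79.0 ± 5.52), PDGFC (20.9 ± 0.948), FGF2 (20.2 ± 1.10), VEGFA (18.2 ± 3.94), HBEGF (5.27 ± 0.514), KITLG (2.55 ± 0.255) and GDNF (1.72 ± 0.455), as mean ± SD over 6 libraries. The ranges of PDGFC, FGF2 and VEGFA overlapped their neighbours', as did those of KITLG and GDNF, and the other steps were separated. With the longest transcript as length, VEGFA and FGF2 changed places. VEGFA had the longest exons of the 8, 14431 bases over 32 annotated transcripts, and a longest transcript of 12167 bases. Its place thus depends on the length used, and gene-level values do not tell which transcripts were made. In CPM, VEGFA stood above FGF2 and PDGFC. The pre-dose and untreated means were 252 and 272 CPM for VEGFA, 139 and 136 for FGF2, and 117 and 116 for PDGFC. GDNF, the member whose groups were apart, had the lowest mean of the 8.

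Among the receptors and co-receptors, 19 of 30 listed genes had a row. The highest per kilobase was the heparan sulphate carrier SDC1 at 103 CPM per kilobase. The neuropilin NRP1, a VEGFA co-receptor, stood at 38.8, TGFBR2 at 25.2, PDGFRB at 22.0, EGFR at 19.7, FGFR1 at 11.7, TGFBR1 at 6.82 and GFRA1 at 5.93 CPM per kilobase. TGFBR3, PDGFRA and KDR were at 0.474, 0.299 and 0.313 CPM per kilobase. KIT, the receptor of KITLG, and FLT1, which binds VEGFA and PGF, had no row. RET, which signals for GDNF bound to GFRA1 and for GDF15 bound to GFRAL, had none, and neither had GFRAL.

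**Figure D3:**
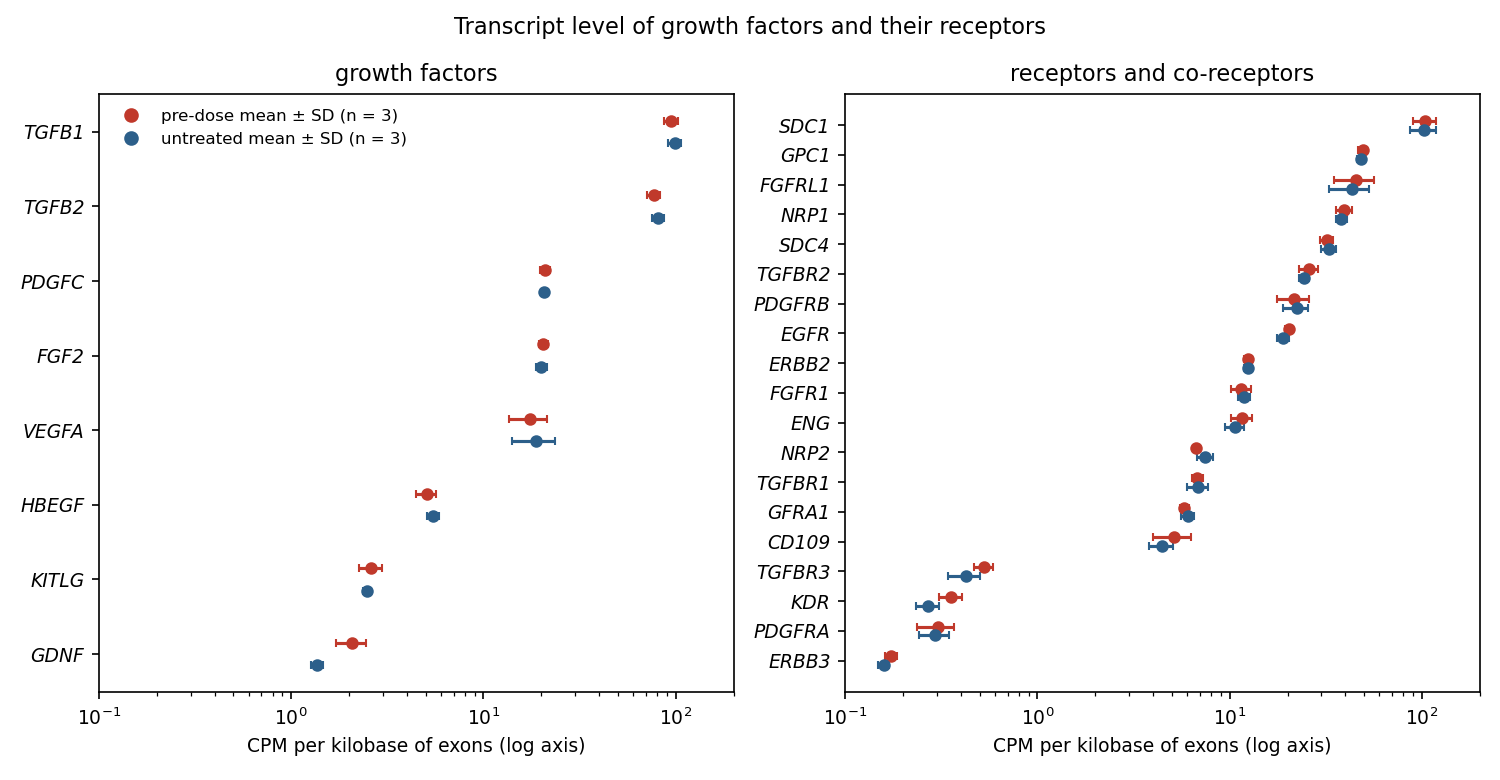
Transcript level in CPM per kilobase of exons (horizontal log axes) of the growth factors and of their receptors and co-receptors with a row, as mean ± SD of 3 pre-dose and 3 untreated libraries. GDNF is the lowest growth factor at 1.72 CPM per kilobase over the 6 libraries, and GFRA1 stands at 5.93.

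None of the 19 receptor genes passed in limma, at an adjusted or an unadjusted p of 0.05. Their median difference was 0.03, with 13 above 0 and 6 below. The smallest unadjusted p values were those of KDR (0.27, 95% interval -0.03 to 0.56), NRP2 (-0.15, -0.33 to 0.02) and TGFBR3 (0.26, -0.06 to 0.57), all log2 differences. Among these receptors the authors' deposited table called 3: NRP2, a neuropilin, as lower (log2 fold change -0.23, adjusted p = 0.0331), TGFBR3, betaglycan, which presents TGFB2 to its receptor, as higher (0.52, adjusted p = 0.0372), and EGFR, the receptor of HBEGF, as higher (0.19, adjusted p = 0.0388). EGFR had 246, 252 and 267 CPM in pre-dose replicates 1, 2 and 3, against 258, 227 and 230 CPM in untreated replicates 1, 2 and 3. The pre-dose library was the higher of the replicate 2 and 3 pairs and the lower of the replicate 1 pair.

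Of 42 other ligands of the same families, 26 had a row, and in limma 0 passed and 1 had an unadjusted p under 0.05. Their median difference was -0.05, with 8 above 0 and 18 below. The 1 was TGFA, which shares EGFR with HBEGF. TGFA had 3.32, 4.29 and 4.31 CPM in pre-dose replicates 1, 2 and 3, against 2.80, 2.26 and 2.98 CPM in untreated replicates 1, 2 and 3. Its groups did not overlap, its difference was 0.43 (95% interval 0.13 to 0.74), and it lay opposite in sign to HBEGF. In this list the authors' deposited table called TGFA (0.65, adjusted p = 0.0378) and BMP4 (0.31, adjusted p = 0.0372) higher, both log2 fold changes, beside ARTN as lower. BMP2 had 1.24 ± 0.284 CPM in pre-dose and 1.72 ± 0.146 CPM in untreated libraries (SD, n = 3 each) and was called in neither source; its groups did not overlap. VEGFB and VEGFC differed by -0.01 and -0.004.

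Genes that store, process or release these ligands numbered 30 with a row of 38, with 0 past the threshold in limma, 1 at an unadjusted p under 0.05 and a median difference of 0.005. FBN2, a microfibril protein that anchors latent TGF-beta complexes, had 204 ± 8.71 CPM in pre-dose and 179.5 ± 6.64 CPM in untreated libraries (SD, n = 3 each), and its groups did not overlap. PLAT, tissue plasminogen activator, which cleaves PDGFC, had 162 ± 29.7 CPM in pre-dose and 131 ± 13.2 CPM in untreated libraries (SD, n = 3 each). ADAM19, a metalloprotease, had 177 ± 9.92 CPM in pre-dose and 209 ± 34.4 CPM in untreated libraries (SD, n = 3 each). By the authors' deposited table FBN2 (adjusted p = 0.0257) and PLAT (adjusted p = 0.0327) were higher, and ADAM19 (adjusted p = 0.0327) and PLAU (adjusted p = 0.0420) were lower.

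Of 24 secreted or membrane antagonists of growth factors 17 had a row, and not all of these act on the members. In limma 0 passed the threshold, 1 had an unadjusted p under 0.05, and the median difference was -0.04. The 1 was FST, follistatin, which binds activins. FST had 31.4, 30.8 and 32.6 CPM in pre-dose replicates 1, 2 and 3, against 31.6, 19.5 and 20.4 CPM in untreated replicates 1, 2 and 3. The replicate 1 pair was nearly level, and both other untreated libraries were lower than all the rest. For antagonists the authors' deposited table called FST (log2 fold change 0.65, adjusted p = 0.0254) and IGFBP3 (0.23, adjusted p = 0.0388) higher, and FSTL1 (-0.19, adjusted p = 0.0375) and IGFBP5 (-0.24, adjusted p = 0.0344) lower.

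Downstream of TGFB1 and TGFB2, the 24 SMAD and TGF-beta response genes all had a row, and in limma 0 passed and 0 had an unadjusted p under 0.05. Their median difference was -0.03, with 8 above 0 and 16 below. The smallest p values were those of KLF10, a TGF-beta-induced repressor (-0.15), and of the SMAD ubiquitin ligases SMURF2 (0.08) and SMURF1 (-0.08), all log2 differences. Of the 24 genes the authors' deposited table called 1, KLF10, as lower (-0.22, adjusted p = 0.0427).

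Among 20 transcription factors known to act on the listed genes, 19 had a row, and in limma 0 passed and 1, ATF4, had an unadjusted p under 0.05. ATF4, a stress factor known to induce VEGFA and GDF15, had 173 ± 11.5 CPM in pre-dose and 193 ± 3.76 CPM in untreated libraries (SD, n = 3 each). Its groups did not overlap, and the authors' deposited table called it lower (log2 fold change -0.18, adjusted p = 0.0373). The list's median difference was -0.03. TFAP2A and RELA followed by p, with differences of 0.08 and -0.08.

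Other factors of the senescence secretome had 20 of 36 genes with a row, 9 with a difference above 0 and 11 below. In limma 0 passed the threshold, 2 had an unadjusted p under 0.05, and the median difference was -0.005. The 2 were SERPINB2, a plasminogen activator inhibitor, and SPP1, osteopontin. SERPINB2 had 6.22, 7.05 and 10.3 CPM in pre-dose replicates 1, 2 and 3, against 5.96, 4.04 and 4.56 CPM in untreated replicates 1, 2 and 3. Its groups did not overlap, and its replicate 1 pair was the closest, as for GDNF. SPP1 had 29.9 ± 2.09 CPM in pre-dose and 23.9 ± 3.74 CPM in untreated libraries (SD, n = 3 each), and ANGPT1 11.4 ± 1.08 CPM in pre-dose and 9.71 ± 0.509 CPM in untreated libraries (SD, n = 3 each). From this list the authors' deposited table called 6 genes, SERPINB2, SPP1, ANGPT1, IL1B and IGFBP3 as higher and PLAU as lower. Some genes, among them IGFBP3 and PLAU, stand in more than 1 list.

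The p53 targets, a known response to DNA damage, are given for scale. All 26 had a row and a fitted difference above 0, with a median of 0.36. In limma 0 passed and 14 had an unadjusted p under 0.05, with the smallest values for CYFIP2, PHLDA3 and FDXR (differences of 0.99, 0.32 and 0.78). The authors' deposited table called 17 of them, each as higher. Whether p53 acts on GDNF was not tested.

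**Figure D4:**
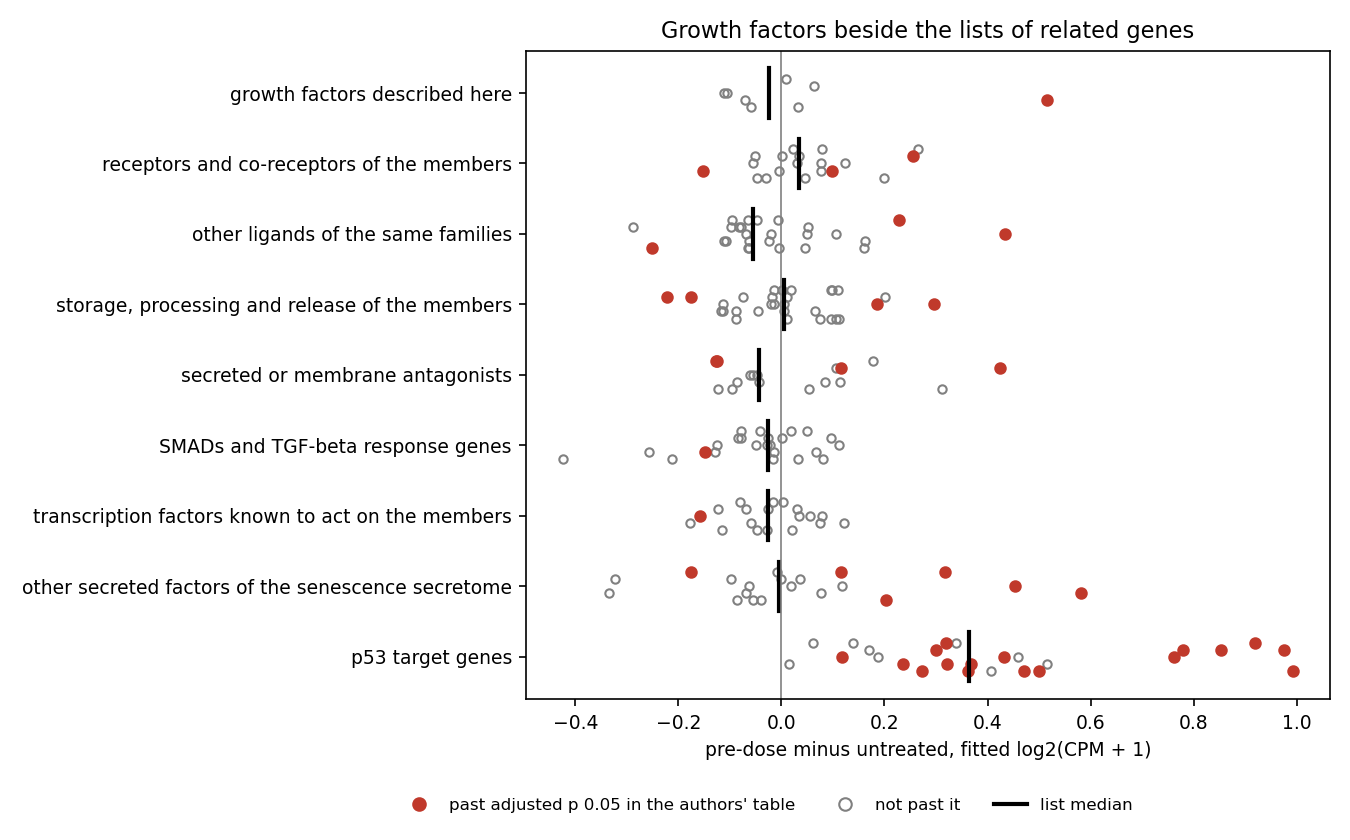
Fitted pre-dose minus untreated difference on the log2(CPM + 1) scale (horizontal axis) of each growth factor and of each gene in the lists of related genes, with the list median as a bar and genes past an adjusted p of 0.05 in the authors' deposited table in red. GDNF stands at 0.52 apart from the other growth factors, and the p53 targets are all above 0.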

How the data were processed

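RNA-seq of 6 libraries was analysed from the table deposited by the authors, whose sample columns hold log2 CPM of estimated counts. In each column the lowest value recurs and was read as 0 reads with 0.5 added, which gave the effective library totals and the estimated reads. Only 53.0 to 55.8% of the low values then came out as whole reads (within 0.0005 reads), so no count model was run. A floor of 3 counts is 0.0944 to 0.114 CPM here, for counting error alone. Per the file headers, the authors deposited log2 fold changes with limits, test scores, and raw and adjusted p-values too. That comparison runs the other way and was reversed, so that positive values mean higher in pre-dose cells. Before reversal its fold changes correlated across genes at r = -0.69 with the pre-dose minus untreated difference of the deposited log2 values. The authors' fold changes are therefore not the plain difference of group means, and why they differ was not tested. Tools named in the submitters' processing notes are bcl2fastq, DRAGEN, edgeR and limma, with the build hg38. How reads were counted, with which strand setting, is not given in the sources used here.

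Of 13773 rows, 77 repeated an identifier and were dropped. As the values were normalized, limma-trend (limma 3.58.1, R 4.3.3) on log2(CPM + 1) replaced the count model planned for raw counts. It covered the 13616 genes whose mean reached 1 CPM, with Benjamini-Hochberg adjustment across them all. Fits were tested on simulated data. Alternatives were a pseudocount of 0.5 CPM, the deposited log2 values, no filter, the replicate block, equal library medians, library weights, each library left out, and replicates 2 and 3 alone.

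Same-numbered libraries were treated as pairs by their number. The deviations of same-numbered libraries from their group means correlated across genes (0.66, 0.45 and 0.18 for replicates 1, 2 and 3). Crossed pairs reached 0.51 (pre-dose replicate 2 with untreated replicate 3) and 0.28 (pre-dose replicate 3 with untreated replicate 2), each above a same-numbered pair that shares a library with it. Deviations from a mean of 3 sum to 0, so a replicate 1 apart in both groups alone makes replicates 2 and 3 correlate. These values set replicate 1 apart and do not show that replicates 2 and 3 match by number.

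The members, the 8 lists of related genes and the 5 marker lists were chosen with earlier results of these data known. Named genes were all members, the genes of each list past the threshold or, with none, the 3 with the smallest unadjusted p, the 5 genes most like GDNF, and the members' main receptors. Genes past the threshold of the authors' table, TGFB3, PSPN, VEGFB, VEGFC, single markers and the overlapping genes were named after their values were seen. Positions and lengths came from GENCODE release 29, in which 13630 identifiers were found, and upstream sequences from RefSeq (GRCh38.p14). Figures were drawn with matplotlib 3.10.9.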

Additional observations from a re-analysis of the deposited data

How the results depend on the processing

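GDNF was higher in pre-dose libraries under each of the 14 alternatives. Its groups did not overlap, so leaving out or weighting libraries, the block, the pseudocount or the filter could not reverse the sign. Only the size of its difference could vary. With 1 library left out it ran from 0.40 (without pre-dose replicate 2) to 0.63 (without pre-dose replicate 1). In replicates 2 and 3 alone the GDNF difference was 0.68. The replicate block left the GDNF difference at 0.52, with an interval of 0.25 to 0.78 and an adjusted p of 0.264. The block fit called 0 genes, as did the fit without it, while genes at an unadjusted p under 0.05 numbered 1443, against 280. It changed no call. TGFB1, VEGFA, PDGFC, FGF2 and KITLG together gave 9 differences of changed sign when each library was left out in turn. These 9 are values of single genes in single fits, all within the spread between replicates. KITLG reached 0.23 under the default library weights. With 1 library left out, TGFB2 ran from -0.13 (without pre-dose replicate 2) to -0.03 (without untreated replicate 2) and HBEGF from -0.20 (without pre-dose replicate 1) to -0.06 (without untreated replicate 1). No value exists for GDF15.

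Of the 14 alternatives, calls appeared in the 3 that left out both replicate 1 libraries or weighted libraries. Replicates 2 and 3 alone called 866 of 13616 genes, or 6.36% (394 higher, 472 lower). Among them were 1 of 8 members (GDNF), 4 of 19 receptors, 4 of 26 other ligands and 11 of 30 storage and release genes. So were 5 of 17 antagonists, 6 of 24 SMAD and response genes and 2 of 19 transcription factors. That fit also called 7 of 20 secretome genes and 21 of 26 p53 targets, the p53 targets all as higher. Library weights by the gene-by-gene method, added after the data were seen, called 189 of 13616 genes (108 higher, 81 lower). They included 1 of 8 members (GDNF), 2 of 19 receptors, 2 of 26 other ligands and 3 of 30 storage and release genes. Called too were 2 of 17 antagonists, 3 of 20 secretome genes and 15 of 26 p53 targets. The default library weights did not reach their convergence tolerance and gave pre-dose replicate 3 a weight of 28.8. That fit called 3744 of 13616 genes (1958 higher, 1786 lower) and 4 of 8 members (2 higher, 2 lower). It called 8 of 19 receptors, 8 of 26 other ligands, 14 of 30 storage and release genes and 11 of 17 antagonists. Calls also covered 6 of 19 transcription factors and 11 of 20 secretome genes. The 8 of 24 SMAD and response genes called were all lower, and the 22 of 26 p53 targets all higher. The cause of these gains was not tested.

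With the longest transcript as length, TGFB1, PDGFC and HBEGF stood at 113.4, 28.01 and 6.661 CPM per kilobase. Depth limits low genes such as AL136131.3, with 20 estimated reads in pre-dose replicate 1.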
